A study of Homo sapiens with 16 samples.

Results

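The GFI1B locus was followed through maps of chromatin contacts in K562 cells, a human erythroleukaemia line. The maps came from Hi-C in nuclei, an assay that cuts fixed chromatin with a restriction enzyme, joins cut ends that lie near each other and counts the joined pairs. The 4 groups were all of unmodified K562 cells fixed with formaldehyde and differing only in the length of the HindIII digestion, which was 0.25, 1, 3 or 12 h, with 2 replicate libraries per group. The stated aim was to catch the most accessible domain boundaries at the short times. The labels do not say whether replicates were separate cultures, so the p-values measure only the spread between these libraries.

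The members were the 20 kb bins over GFI1B in the second sequencing run, taken by position on build hg19 and not by any measured value. The interval chr9:135820000-135868000 touches 3 bins of 154795 in all. Bin 1 is chr9:135820001-135840000, bin 2 is chr9:135840001-135860000 and bin 3 is chr9:135860001-135880000. All 3 were present in all files, as were 137198 bins of chromosomes 1 to 22 and X. Their partners were the other bins of chr9:134900000-136800000, of which 93 of 95 bins were present in all libraries, GFI1B's included, giving 273 pairs with a GFI1B bin.

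GFI1B encodes a zinc-finger repressor of the GFI1 family that is needed to form red cells and platelets. It recruits the histone demethylase KDM1A (LSD1) with its partner RCOR1 (CoREST) to target genes, and it represses its own gene. Its closest relative, GFI1, works mainly in granulocyte precursors, stem cells and lymphocytes. K562 cells resemble early red cell and megakaryocyte precursors, in which GFI1B is normally active, but no RNA was measured here.

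No gene annotation of hg19 was used, so neighbouring genes are given by their order alone, from the RefSeq table of GRCh38.p14. On the side of lower coordinates that order runs from GFI1B through TSC1, SPACA9, AK8, GTF3C4 and DDX31. TSC1 encodes hamartin, a brake on mTOR signalling, and GTF3C4 a subunit of the RNA polymerase III factor TFIIIC. On the side of higher coordinates GTF3C5, another TFIIIC subunit, comes first, followed among named genes by CEL (a bile salt-dependent lipase), RALGDS and GBGT1.

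The sequence before each of the 2 GFI1B starts in the table is shown because HindIII cuts only at AAGCTT and because GATA factors, the CCAAT-binding factor NF-Y and GFI1B itself are known regulators of this gene. The starts lie 33163 bases apart. Measured from the start of the hg19 interval, that spacing places the first start at the edge of bin 1 and the second in bin 2, if both builds share it, which was not tested. TSC1 runs away from GFI1B on the other strand and leaves 152 bases between the genes, so the first sequence is those 152 bases and the second is the 250 bases before the start. Both are RefSeq sequence of GRCh38.p14, plus strand, at chr9:132945379-132945530 and chr9:132978444-132978693. Capitals mark GATAA or its complement TTATC, and CCAAT or its complement ATTGG.
GFI1B first start: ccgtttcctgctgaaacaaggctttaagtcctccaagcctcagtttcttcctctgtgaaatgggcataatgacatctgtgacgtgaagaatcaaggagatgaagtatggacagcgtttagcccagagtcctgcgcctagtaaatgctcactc
GFI1B second start: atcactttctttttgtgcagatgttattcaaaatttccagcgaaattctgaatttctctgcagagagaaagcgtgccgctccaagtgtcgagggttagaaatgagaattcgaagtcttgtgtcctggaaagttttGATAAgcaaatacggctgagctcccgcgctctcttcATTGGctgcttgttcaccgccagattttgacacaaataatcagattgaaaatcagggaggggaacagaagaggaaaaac

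Neither sequence held AAGCTT, which occurred in 2.97% of stretches of the first length and 5.02% of the second among 35116 promoter windows. The second sequence held 1 GATAA, its first base 115 bases before the start, and 1 ATTGG, its first base 79 bases before the start. GATAA or TTATC occurred in 20.4% of stretches of that length and CCAAT or ATTGG in 32.0%. The first sequence held neither. The core of the GFI1 family site, AATC or its complement GATT, matched 4 times in the second sequence and 1 time in the first, against 64.8% and 48.5% of stretches with any match. The searches covered both strands, and a match is a description of letters only.

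The 8 libraries of the second run held from 62777251 contacts (0.25 h, replicate 2) to 176412222 (12 h, replicate 1). The totals were 114338328 and 62777251 at 0.25 h, 121117603 and 78895077 after 1 h, 145441737 and 108866651 after 3 h, and 176412222 and 153465906 after 12 h. Depth thus rose with digestion time within each replicate number, and its part in any result over time was not tested. Between 88.0% and 90.3% of contacts stayed within a chromosome. Contacts are read pairs without molecular identifiers, so the intervals below cover counting error only.

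Coverage, a bin's CPM (its contacts in each 1000000 of its library), rose with digestion time in the 2 bins that start the gene and not detectably in the bin that ends it. Under some other ways of counting or scaling, given below, bin 3 fell by the test. In bin 1 it was 6.63 and 5.69 CPM at 0.25 h, 6.82 and 6.82 after 1 h, 7.34 and 7.41 after 3 h, and 9.60 and 9.73 after 12 h. All libraries of 3 h and 12 h stood above all those of 0.25 h and 1 h. The means were 6.16 ± 0.67 (SD, n = 2) at 0.25 h and 9.66 ± 0.093 (SD, n = 2) at 12 h. In bin 2 coverage was 3.85 and 3.93 CPM at 0.25 h, 4.37 and 4.04 after 1 h, 4.76 and 4.99 after 3 h, and 6.07 and 6.31 after 12 h. The ranges of the 4 times did not overlap in bin 2. Bin 3 had 5.07 and 5.48 CPM at 0.25 h, 4.97 and 5.35 after 1 h, 5.00 and 5.83 after 3 h, and 4.60 and 4.74 after 12 h. Its 12 h libraries were the lowest, and the other times overlapped.

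The slope of log2 coverage on log2 hours was 0.11 (SE 0.015) in bin 1, with an adjusted p of 1.28e-05 by limma over all bins. In bin 2 it was 0.12 (SE 0.016), with a limma adjusted p of 1.48e-05. In bin 3 it was -0.03 (SE 0.017), with a limma adjusted p of 0.190. A rise was common: 62.9% of the 137198 bins tested were called by the same rule, 52.1% rising and 10.8% falling, so 2 rising bins of 3 are near the background. The log2 difference of 0.25 h minus 12 h was -0.65 (SE 0.070) in bin 1 and -0.67 (SE 0.075) in bin 2, with limma adjusted p of 1.11e-06 and 1.63e-06. In bin 3 it was 0.18 (SE 0.085, limma adjusted p = 0.0735). In that comparison 55.7% of all bins were called lower at 0.25 h and 11.9% higher.

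These values include a shift of the whole map, since the median bin differed by -0.17 on the log2 scale between 0.25 h and 12 h. A contact inside a bin was counted once and any other contact in both its bins. Contacts inside a bin made up 20.4% and 24.2% of all at 0.25 h and 11.7% and 11.5% at 12 h. Coverage summed over all bins had to rise as that share fell. Without them the median bin differed by -0.05, and 42600 bins were called rising and 25138 falling. The slopes were then 0.09, 0.09 and -0.05 in bins 1 to 3 (limma adjusted p = 5.08e-05, 0.000105 and 0.0122). Under median-of-ratios scaling, which sets the shift of the median bin to about 0, the differences of 0.25 h minus 12 h were -0.49 in bin 1, -0.50 in bin 2 and 0.34 in bin 3. All 3 bins were then called by limma, with adjusted p of 1.13e-05, 3.48e-05 and 0.00291, as were 58.5% of all bins. With that scaling 26.1% of bins rose and 28.0% fell along the trend, and bin 3 was among those that fell (slope -0.05, limma adjusted p = 0.0147). Counting only contacts with other chromosomes left bin 2 rising (slope 0.11, limma adjusted p = 0.00802), while bin 1 missed the threshold (slope 0.06, limma adjusted p = 0.0582) and bin 3 fell (slope -0.08, limma adjusted p = 0.0421). Of all bins 5.8% were called along the trend of these contacts. Between 0.25 h and 12 h 6.3% were called, with bin 1 (-0.41, limma adjusted p = 0.0178), bin 2 (-0.59, limma adjusted p = 0.0120) and bin 3 (0.45, limma adjusted p = 0.0466) among them. The rise of bin 1 also missed the threshold without the 12 h libraries (slope 0.07, limma adjusted p = 0.0557), when 2.2% of all bins were called. Leaving out 0.25 h replicate 1 made the 0.25 h to 12 h difference of bin 3 a call (0.23, limma adjusted p = 0.0174), in a fit that called 75.4% of all bins and that assumes the lone 0.25 h library to vary like the other groups.

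The divergence of neighbouring bins inside the gene was tested directly, as a log2 ratio of coverages within each library, which does not depend on the scaling. The ratios were chosen after the bin values were seen. How often neighbouring bins diverge in this way over the genome was not counted, so the tests do not set GFI1B apart. The log2 ratio of bin 2 over bin 3 was -0.40 and -0.48 at 0.25 h, -0.19 and -0.40 after 1 h, -0.07 and -0.23 after 3 h, and 0.40 and 0.41 after 12 h. Bin 2 thus had fewer contacts than bin 3 in all 6 libraries of 0.25 to 3 h and more in both libraries of 12 h. Over the 8 libraries Spearman's rho with time was 0.88 (two-sided exact permutation p = 0.0103, adjusted over 3 ratios 0.0310) and Pearson's r was 0.92 (exact permutation p = 0.00317, adjusted 0.00952). Leaving out the 12 h libraries gave r 0.83 and leaving out those of 0.25 h gave r 0.94, but rho no longer passed the threshold in either case (exact permutation p = 0.178 and 0.0667). For bin 1 over bin 3 the mean log2 ratio went from 0.22 at 0.25 h to 1.05 at 12 h, with rho 0.73 (exact permutation p = 0.0548, adjusted 0.0821) and r 0.87 (exact permutation p = 0.00714, adjusted 0.0107). That r was 0.62 when the 12 h libraries were left out and 0.90 when those of 0.25 h were. Leaving out 0.25 h replicate 1, 1 h replicate 2 or 3 h replicate 2 brought its rho past the threshold (exact permutation p = 0.0381, 0.0381 and 0.0127). For bin 1 over bin 2 it was 0.66 at 0.25 h and 0.64 at 12 h, with rho -0.15 (exact permutation p = 0.761, adjusted 0.761), r -0.19 (exact permutation p = 0.653), r -0.24 without the 12 h and -0.37 without the 0.25 h libraries.

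All 3 bins were sparsely covered beside the genome as a whole, in which the median bin had 10.9 CPM at 0.25 h and 12.2 at 12 h. Bin 1 lay between percentiles 21.9 and 35.8 of all bins over the 8 libraries. Bin 2 lay between percentiles 10.9 and 17.1 and bin 3 between percentiles 9.68 and 20.7. In contacts, bin 2 held 247 in the shallowest library and 1070 in the deepest, which sets the precision of its values. The HindIII sites in each bin could not be counted. Their part in a bin's coverage, and in the contacts inside a bin described next, was not tested.

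**Figure D1:**
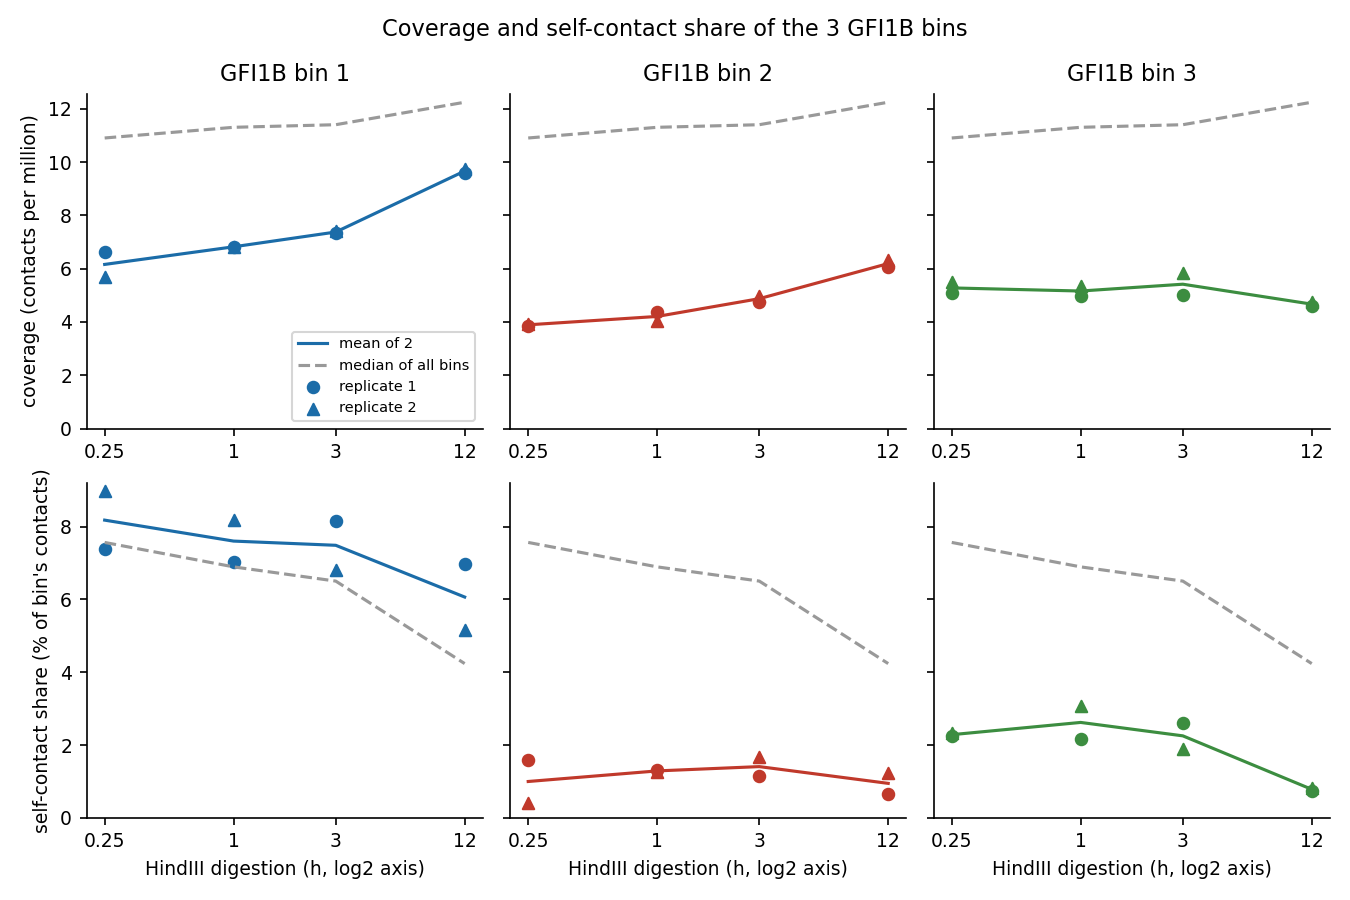
Coverage in CPM (upper row) and the percent of a bin's contacts that stay inside it (lower row) against hours of digestion on a log2 axis, for GFI1B bins 1 to 3. Points are libraries, solid lines the mean of 2 replicates and dashed lines the median of all bins; bins 1 and 2 climb to 9.66 and 6.19 at 12 h, while bin 3 ends at 4.67.

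Self-contacts, which join ends inside 1 bin, fell in bin 3 only among the 3 by the test, and were rare in bins 2 and 3 throughout. In bin 3 they made up 2.24% and 2.33% of the bin's contacts at 0.25 h, 2.16% and 3.08% after 1 h, 2.61% and 1.89% after 3 h, and 0.740% and 0.825% after 12 h. The first 3 times overlapped and both 12 h libraries lay below all others, each resting on 6 self-contacts. The slope of the log2 share on log2 hours was -0.26 (SE 0.080, limma adjusted p = 0.00939) and the log2 difference of 0.25 h minus 12 h was 1.50 (SE 0.35, limma adjusted p = 0.00309). A fall was the rule, since 60.7% of all bins were called along the trend and 60.5% fell. Between 0.25 h and 12 h 66.2% were called, and 66.0% were higher at 0.25 h. The slope of bin 3 rested on 12 h: it was -0.01 without those libraries (limma adjusted p = 0.952), -0.19 with 12 h replicate 1 left out (limma adjusted p = 0.0911) and -0.21 with 12 h replicate 2 left out (limma adjusted p = 0.0687). In the 50 kb bin of the first run that holds bin 3, the slope was -0.03 (limma adjusted p = 0.718).

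In bin 1 the share was 7.39% and 8.96% at 0.25 h, 7.02% and 8.18% after 1 h, 8.15% and 6.82% after 3 h, and 6.97% and 5.16% after 12 h. Both 12 h libraries lay below those of 0.25 h and 1 h and overlapped the 3 h libraries, and the slope of -0.08 (SE 0.051) was not called (limma adjusted p = 0.204). The median of all bins went from 7.56% at 0.25 h to 4.24% at 12 h, where bin 1 lay at percentiles 76.9 and 60.9 of all bins. Bin 2 held 55 self-contacts among 4809 contacts over the 8 libraries, between 0.405% and 1.66% per library, and its slope was -0.01 (SE 0.086, limma adjusted p = 0.90). At 1 to 9 self-contacts in 7 libraries and 12 in the last, the depth limits what could be seen in bin 2. Differences between the 3 bins in this share were not tested.

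Contacts with other chromosomes took a larger share at GFI1B than in most of the genome. The share over the 3 bins was 21% and 21.8% at 0.25 h, 22.1% and 25.4% after 1 h, 20.2% and 22.1% after 3 h, and 21.3% and 23.4% after 12 h. Both 1 h libraries lay above those of 0.25 h and 3 h, and the 12 h libraries overlapped the other times. With 1 more bin on each side the share was much alike, from 20.9% (3 h replicate 1) to 23.3% (1 h replicate 2), so it was not confined to the 3 bins. Bin 1 lay at or above percentile 92.2 of all bins in every library, bin 3 at or above percentile 94.0 and bin 2 at or above percentile 79.3. The share did not follow time (rho 0.10, exact permutation p = 0.861, adjusted over 8 single-value trends 0.946; r 0.03, exact permutation p = 0.944). The 3785 such contacts were spread thinly over 1645 stretches of 1 Mb, with a median of 2 contacts. By balanced signal the first was chr1:12000001-13000000 with 9 contacts from 4 libraries. The next were chr17:80000001-81000000 with 8 contacts and chr17:1000001-2000000 with 7, each from 3 libraries. No single stretch was tested against counting noise. Outside the mitochondrial genome, which took 5 of them, the contacts were uneven by whole chromosome. They were densest on chromosome 17, at 2.70 per Mb of length (219 contacts), and chromosome 19, at 2.42 (143 contacts). Next came chromosome 22, at 2.07 (106 contacts). Among chromosomes with any contact such contacts were sparsest on X, at 0.509 (79 contacts), and chromosome 13, at 0.495 (57 contacts). These densities were not set against each chromosome's own coverage. Chromosomes were taken as ordered in hg19. Contacts across any rearrangement in these cells would thus count as contacts with another chromosome, which was not tested.

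The balanced signal was then read against distance. Observed over expected is the balanced signal of a pair of bins divided by the mean over all chromosome 9 pairs at that distance in the same library, so 1 is the chromosome's average. Bins 1 and 2 met the lower-coordinate side, where TSC1 lies, more than the upper side, and bin 3 met both sides alike on average. For partners 60 to 600 kb away, mean observed over expected was 1.35 below and 0.761 above for bin 1, 1.83 and 1.03 for bin 2, and 1.11 and 1.16 for bin 3. The lean, the log2 of lower over upper, was 0.93 and 1.15 at 0.25 h, 0.55 and 0.67 after 1 h, 0.80 and 0.92 after 3 h, and 0.78 and 0.90 after 12 h in bin 1. In bin 2 it was 0.86 and 2.02 at 0.25 h, 0.52 and 0.96 after 1 h, 0.94 and 0.15 after 3 h, and 0.62 and 0.65 after 12 h. It was above 0 in 8 of 8 libraries in both bins, with replicates of bin 2 far apart at 0.25 and 3 h. In bin 3 it was -0.37 and 0.79 at 0.25 h, 0.20 and -0.26 after 1 h, -0.51 and -0.41 after 3 h, and 0.10 and -0.04 after 12 h, above 0 in 3 of 8 libraries.

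The change of lean inside the gene was tested over libraries, again after the values were seen. The lean of bin 1 exceeded that of bin 3 by 0.90 ± 0.41 (SD, n = 8), higher in 8 of 8 libraries (two-sided exact permutation of signs, p = 0.00781, the smallest that 8 libraries allow, adjusted over 3 differences 0.0117). The lean of bin 2 exceeded that of bin 3 by 0.90 ± 0.43 (SD, n = 8), also in 8 of 8 libraries (exact permutation p = 0.00781, adjusted 0.0117). Bins 1 and 2 differed by -0.0021 ± 0.47 (SD, n = 8, exact permutation p = 0.984). Large steps between neighbouring bins also occurred elsewhere in the window. The lean went from 1.79 at 135100001 to 0.70 at 135120001, and from 0.80 at 136020001 to -1.16 at 136040001. How common such steps are on chromosome 9 was not counted, so these p-values do not set GFI1B apart. Among 4638 bins of chromosome 9, the lean of bins 1 and 2 lay at percentiles 91.2 and 91.1 and that of bin 3 at percentile 43.9. The 10 bins below bin 1, down to the one at 135620001 (0.31), leaned the same way, and the next, at 135600001, had -0.05. The 6 bins above bin 3 leaned the other way, with -0.42 at 135880001 and -0.86 at 135900001. At matched distances the lower partner was the higher in 25 of 27 pairs for bin 1, 23 of 27 for bin 2 and 12 of 27 for bin 3. Without balancing the lean was 1.24 in bin 1, 1.21 in bin 2 and 0.62 in bin 3. Its size, not its direction, thus depended on balancing in bins 1 and 2. The differences between the bins were not tested on unbalanced contacts.

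**Figure D2:**
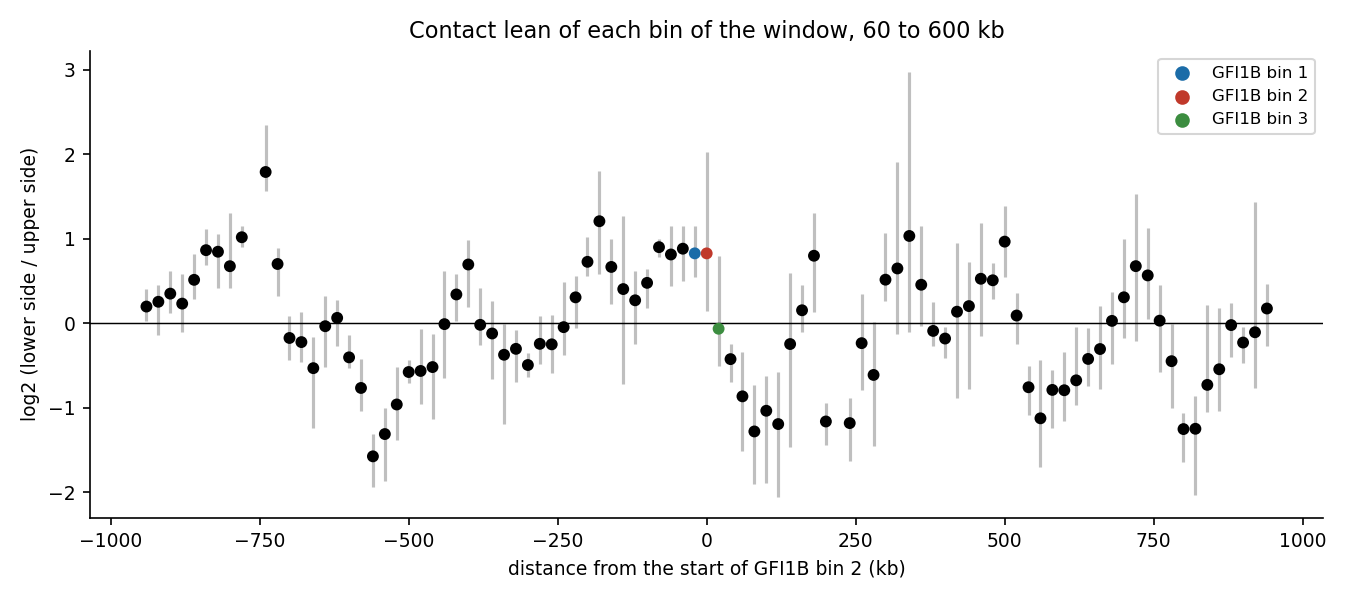
Log2 of mean observed over expected on the lower side over that on the upper side, for partners 60 to 600 kb away, for each bin of the window against its distance in kb from GFI1B bin 2. Points are from the means over 8 libraries, each weighted alike, and grey lines run from the lowest to the highest library. Bins 1 and 2 stand at 0.83, bin 3 at -0.06, and the 6 bins after it below 0.

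By distance, the excess below GFI1B reached to 600 kb for bin 1 and was smaller beyond that for bin 2. Bin 1 had a mean observed over expected of 1.19 ± 0.19 (SD, n = 8) with partners 60 to 200 kb below, 1.38 ± 0.19 at 200 to 400 kb, 1.73 ± 0.30 at 400 to 600 kb and 0.882 ± 0.17 at 600 to 900 kb. Bin 2 had 1.89 ± 0.50, 1.64 ± 0.26, 1.95 ± 0.41 and 1.17 ± 0.23 over the same bands. For both bins the 200 to 400 kb and 400 to 600 kb bands lay above 1 in 8 of 8 libraries, and the farthest band did so in 2 of 8 for bin 1 and in 7 of 8 for bin 2. On the upper side bin 1 stayed at 0.714 ± 0.13, 0.874 ± 0.33, 0.724 ± 0.20 and 0.633 ± 0.29, and bin 2 went from 1.24 ± 0.45 to 0.577 ± 0.34. Bin 3 had between 1.03 and 1.35 below and between 0.927 and 1.38 above, with an SD of at least 0.195 in all bands. Over 86 partners at least 60 kb from all 3 bins, the profiles of bins 1 and 2 correlated at r 0.71, bins 1 and 3 at 0.38 and bins 2 and 3 at 0.29, across partner bins that share the libraries and their depth. The profile at 0.25 h correlated with that at 12 h over 88 partners at r 0.20 in bin 1, 0.51 in bin 2 and 0.084 in bin 3. The median partner held 16, 15 and 12 contacts in bins 1 to 3 over all libraries. Replicates of the same time were not compared, so counting noise cannot be told from a change between the end times.

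Single partners rested on few contacts. Their intervals scale the exact Poisson bounds of the summed contacts to the balanced value, so they are approximate and leave out error in the balancing. Bin 2 had its firmest high values with chr9:135280001-135300000, 560 kb below, and chr9:135680001-135700000, 160 kb below. For the former, observed over expected was 4.63 and 4.18 at 0.25 h, 2.3 and 2.36 after 1 h, 2.00 and 2.50 after 3 h, and 3.90 and 3.98 after 12 h, and 3.26 in the sum of all libraries (68 contacts, approximate 95% interval 2.53 to 4.13). It was above 1 in 8 of 8 libraries and lowest in the 4 libraries of 1 and 3 h. For the latter it was 2.96 and 2.66 at 0.25 h, 2.75 and 1.71 after 1 h, 2.50 and 5.03 after 3 h, and 3.17 and 3.02 after 12 h, and 3.03 in the sum (107 contacts, interval 2.48 to 3.66). Both 12 h libraries lay above those of 0.25 h and 1 h there, and the 3 h libraries spanned all other times except the lower of the 1 h libraries. Without balancing the sums were 3.00 and 1.48.

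The other high partners of bin 2 lay beside these. They were chr9:135260001-135280000 (4.04 in the sum, 24 contacts, above 1 in 7 of 8 libraries), chr9:135700001-135720000 (2.97, 26 contacts, 7 of 8) and chr9:135300001-135320000 (2.66, 15 contacts, 6 of 8). Single libraries ranged from 0 to 13.4 for the first of these, and without balancing its sum was 1.10, so their order cannot be told. With the bin at 135280001, bin 1 had 1.76 in the sum (59 contacts, interval 1.34 to 2.27) and bin 3 had 1.85 (37 contacts, interval 1.30 to 2.55). With the bin at 135680001, bin 1 had 1.8 (109 contacts, interval 1.48 to 2.17) and bin 3 had 1.14 (37 contacts, interval 0.802 to 1.57). Both partners were chosen for their high values with bin 2, so this is a description and no test of a difference between the bins.

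The 5 highest partners of bin 1 were all below it, at 135260001 (2.84, 28 contacts), 135480001 (2.42, 28 contacts), 135460001 (2.09, 50 contacts), 135300001 (1.98, 20 contacts) and 135400001 (1.81, 10 contacts). Libraries ran from 0 to 5.79 for the first and from 0.344 to 7.17 for the second, and the interval of the last, 0.866 to 3.32, includes 1, so their order cannot be told either. Of these the bin at 135460001 was above 1 in 8 of 8 libraries, with 1.32 and 1.95 at 0.25 h, 3.74 and 3.34 after 1 h, 2.66 and 1.29 after 3 h, and 1.43 and 1.63 after 12 h. The 1 h libraries were the highest and the other times overlapped. The 5 highest of bin 3 lay on both sides, at 135400001 (2.66, 8 contacts), 136300001 (2.59, 15 contacts), 136580001 (2.29, 11 contacts), 136340001 (2.13, 25 contacts) and 135060001 (2.12, 6 contacts). Only the bin at 136340001, 480 kb above, was above 1 in 8 of 8 libraries among them, from 1.15 to 4.63. The lowest partners of bins 1 and 2 were all above GFI1B: 3 partners of bin 1 and 2 of bin 2 had no contact in any library, and the next of bin 2, at 136500001, had 1 contact. The lowest of bin 3, at 135000001, 136620001 and 135100001, had 2, 3 and 2 contacts. Of the 88 partners of each bin at least 60 kb away, 27 of 43 below bin 1 and 6 of 45 above it had sums over 1. The counts were 36 of 44 below and 11 of 44 above for bin 2, and 21 of 45 below and 21 of 43 above for bin 3. The share of all chromosome 9 pairs over 1 at these distances was not counted, so these counts cannot be set against a background.

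**Figure D3:**
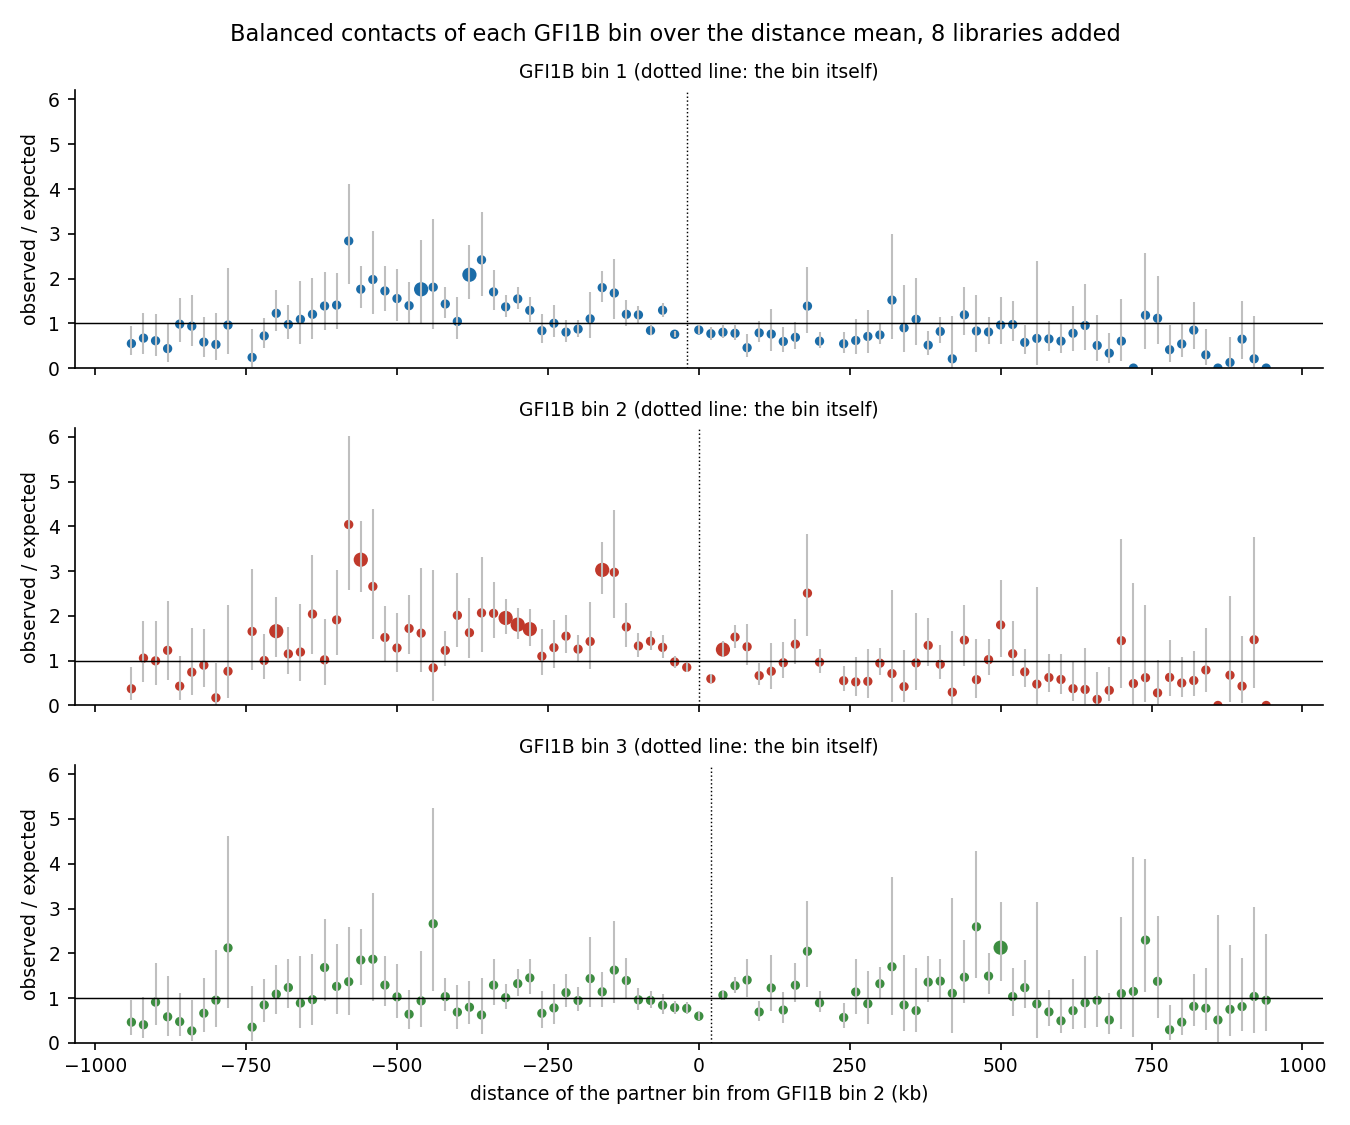
Balanced contacts of GFI1B bins 1 to 3 with each bin of the window over the chromosome 9 mean at the same distance, 8 libraries added, against the partner's distance in kb from bin 2. Grey lines are 95% Poisson counting intervals, large points are partners above 1 in all 8 libraries and the horizontal line is 1; bin 2 reaches 4.04 about 580 kb below.

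Close to home, the 3 GFI1B bins met each other less than the chromosome's average at the same distance. Bins 2 and 3 had an observed over expected of 0.596 in the sum (142 contacts, interval 0.502 to 0.703), below 1 in 8 of 8 libraries, and bins 1 and 2 had 0.852 (301 contacts, interval 0.758 to 0.954). Bins 1 and 3 had 0.769 (116 contacts, interval 0.635 to 0.922). The bin just below the gene, at 135800001, met bin 1 at 0.757 (605 contacts, interval 0.697 to 0.819), also below 1 in 8 of 8 libraries, and met bin 2 at 0.972 (208 contacts, interval 0.844 to 1.11). The next bin down, at 135780001, met bin 1 at 1.29 (256 contacts, interval 1.14 to 1.46), above 1 in 7 of 8 libraries. Bin 2 met the bin at 135880001, 40 kb above, at 1.25 (188 contacts, interval 1.08 to 1.44), above 1 in 8 of 8 libraries, though bin 3 lies between them. Bin 3 met that bin at 1.07 (407 contacts, interval 0.965 to 1.18) and the bin at 135900001 at 1.28 (191 contacts, interval 1.10 to 1.47), above 1 in 7 of 8 libraries.

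Whether any of these pairs changed with digestion was asked in a fit over 73421 pairs of chromosome 9, in which 59 of the 273 GFI1B pairs had enough contacts, a mean of at least 5 per library. None of the 59 passed in either test by limma, with a lowest adjusted p of 0.830 for the trend and 0.825 for 0.25 h against 12 h. Over all pairs only 0.0218% were called along the trend and 0.0191% between 0.25 h and 12 h. At an unadjusted p under 0.05 there were 7 of 59 along the trend, or 11.9%, against 5.86% of all pairs, and 5 of 59, or 8.47%, against 5.83% between the end times. The median slope of the 59 was -0.02 per log2 hour, against -0.00010 over all pairs. Without balancing 1 GFI1B pair was called, bin 1 with the bin at 135800001 just below the gene (slope 0.15, limma adjusted p = 0.0272), against 0.199% of all pairs.

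Insulation compares the balanced signal that passes over a bin, between the 200 kb on its left and the 200 kb on its right, with the chromosome's mean on a log2 scale, and is low where few contacts pass over a bin. GFI1B held a local minimum, at bin 2. There the score was -0.67 and -0.25 at 0.25 h, -0.34 and -0.65 after 1 h, -0.55 and -0.52 after 3 h, and -0.52 and -0.58 after 12 h. Every library was below 0 at bin 2 and the times overlapped. In 7 of 8 libraries bin 2 had the lowest score of the surrounding bins. In the other, 0.25 h replicate 2, the shallowest, the minimum lay 60 kb higher, at chr9:135900001-135920000 with -0.70. Only 167 contacts crossed bin 2 inside the square in that library, against 618 in 12 h replicate 1. In the sum of all libraries the score of bin 2 was -0.52, and without each library in turn it was between -0.55 and -0.50.

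The minimum at bin 2 had a prominence, the rise of the score to the lower of its shoulders, of 1.07. It ranked number 71 of 222 boundaries of chromosome 9, whose median prominence was 0.808. The window held 6 boundaries. The next below GFI1B, at chr9:135460001-135480000, was shallow (score 0.15, prominence 0.29), between -0.08 and 0.24 over the libraries. The next above, at chr9:136020001-136040000, had a score of -0.07 and a prominence of 0.45, with libraries between -0.23 and 0.18. The strongest of the window, at chr9:135120001-135140000, had a score of -0.76 and a prominence of 1.31, with every library between -0.93 and -0.54. GFI1B's was the second of the window by prominence.

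**Figure D4:**
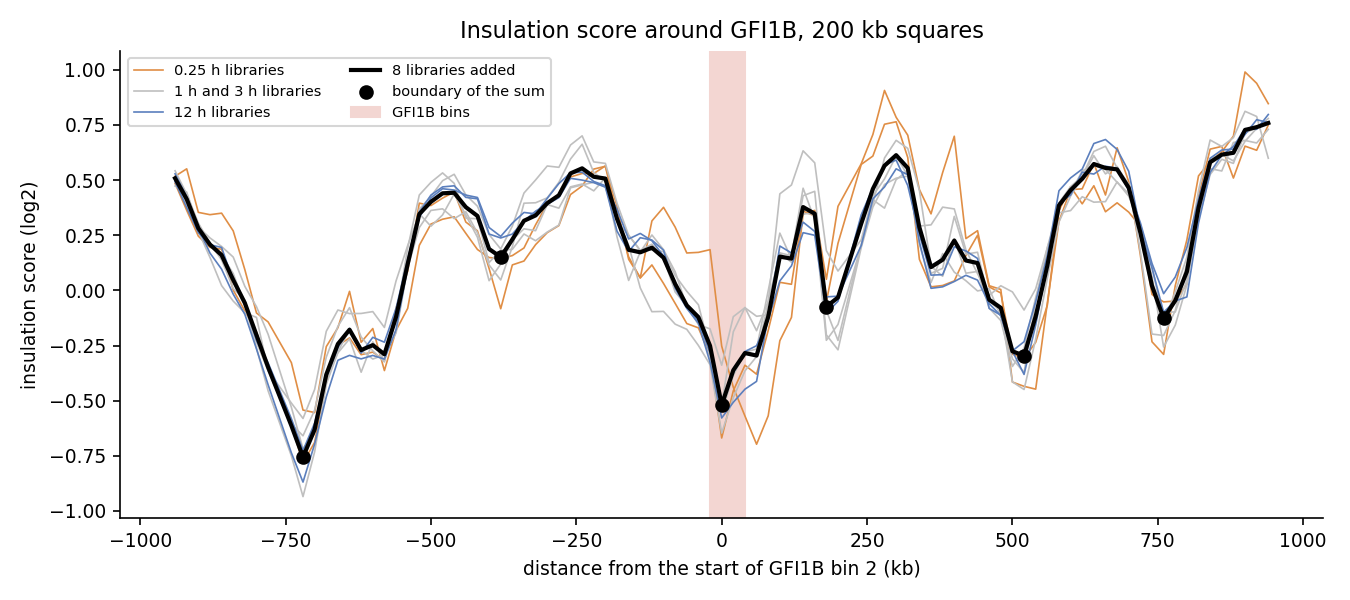
Insulation score (log2) of each bin against its distance in kb from GFI1B bin 2, with thin lines for libraries, a thick line for the sum of all 8 and dots for boundaries. The shaded GFI1B bins hold a local minimum of -0.52, above the lowest score of the window, -0.76 further left; 1 of the 0.25 h libraries reaches its lowest value, -0.70, further right.

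The score of the GFI1B bins did not follow digestion time by the tests. In bin 1 the slope was -0.04 per log2 hour (SE 0.019, limma adjusted p = 0.594), in bin 2 -0.02 (SE 0.020, limma adjusted p = 0.873) and in bin 3 0.00206 (SE 0.021, limma adjusted p = 0.987). Of 4708 bins of chromosome 9, 0% were called in either test by limma, with 369 bins at an unadjusted p under 0.05 along the trend and 405 between 0.25 h and 12 h. The difference of 0.25 h minus 12 h in bin 1 was 0.25 (SE 0.11, limma adjusted p = 0.544), and became 0.49 (limma adjusted p = 0.00807) without 0.25 h replicate 1, which leaves 0.25 h replicate 2 alone and assumes that it varied like the other groups. That fit called 4.61% of all bins. Without balancing bin 3 was called, with a slope of 0.08 (limma adjusted p = 0.000700), but so were 39.5% of all bins tested, so 1 bin of 3 is near the background.

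The block of 200 kb below bin 2 and the block of 200 kb above it each met themselves more than they met each other. Mean observed over expected was 1.09 ± 0.085 (SD, n = 8) within the lower block and 1.46 ± 0.16 within the upper block. Across bin 2 it was 0.70 ± 0.073, from 0.624 to 0.833, so that no library's value across reached any library's value within, the lowest of which was 0.976. With blocks of 400 kb the means were 1.18 ± 0.028, 1.32 ± 0.091 and 0.672 ± 0.063. The blocks were laid around a minimum of the same score, so this is a description of that minimum and no further support for it.

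The remaining values of the locus taken as a whole showed no trend over the 8 libraries, among 8 trends tested. The percent of contacts inside their own bin was 4.27% and 4.32% at 0.25 h, 3.99% and 4.77% after 1 h, 4.59% and 3.83% after 3 h, and 3.67% and 2.98% after 12 h. It had rho -0.63 (exact permutation p = 0.110, adjusted 0.883) and r -0.65 (exact permutation p = 0.0778, adjusted 0.476), with r -0.10 without the 12 h and -0.74 without the 0.25 h libraries. Both 12 h libraries were the lowest. Leaving out 3 h replicate 1 brought rho to -0.83 (exact permutation p = 0.0317). Of the balanced contacts on chromosome 9 outside the own bin, 75.6% ± 2.1 (SD, n = 2) at 0.25 h and 76.1% ± 0.85 at 12 h stayed in the window (rho 0.24, exact permutation p = 0.586; r 0.22, exact permutation p = 0.593). The part of these on the lower side was 60.3% ± 5.7 at 0.25 h, 55.2% ± 0.056 after 1 h, 54.5% ± 0.99 after 3 h and 57.3% ± 0.93 after 12 h (rho -0.10, exact permutation p = 0.861; r -0.35, exact permutation p = 0.435). The high mean at 0.25 h came from 64.3% in replicate 2, against 56.3% in replicate 1. Without the 12 h libraries its rho was -0.96 (exact permutation p = 0.0222), and on contacts without balancing it was 0.83 (exact permutation p = 0.0198), in the opposite direction.

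Mean observed over expected among the GFI1B bins was 0.884 ± 0.073 (SD, n = 2) at 0.25 h, 0.697 ± 0.078 after 1 h, 0.714 ± 0.064 after 3 h and 0.721 ± 0.046 after 12 h. The 0.25 h libraries, at 0.935 and 0.832, stood above all others, and the trend was not past the threshold (rho -0.44, exact permutation p = 0.30; r -0.60, exact permutation p = 0.119, and 0.21 without the 0.25 h libraries). With partners up to 200 kb, the mean was 1.54 ± 0.35 below and 0.831 ± 0.27 above at 0.25 h. It was 1.24 ± 0.085 and 1.16 ± 0.13 after 1 h, 1.35 ± 0.010 and 1.25 ± 0.082 after 3 h, and 1.29 ± 0.067 and 0.956 ± 0.0043 after 12 h. The spread at 0.25 h came from replicate 2, with 1.78 below and 0.640 above, against 1.29 and 1.02 in replicate 1. Neither side passed the threshold over time (below, rho -0.10, exact permutation p = 0.861; above, rho 0.05, exact permutation p = 0.946), nor did the mean insulation of the 3 bins (rho -0.10, exact permutation p = 0.861). On contacts without balancing the value below rose with time (rho 0.83, exact permutation p = 0.0198), in the opposite direction. Its levels were then under 1 in every library, from 0.616 (1 h replicate 2) to 0.882 (12 h replicate 2). Those above ran from 0.346 (0.25 h replicate 2) to 0.504 (3 h replicate 2). Contacts without balancing are not corrected for the coverage of the bins. With 8 libraries the smallest p these permutations can give is 0.000794.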

How the data were processed

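Per the labels' protocols, nuclei of formaldehyde-fixed cells were digested with HindIII and biotin-filled ends were joined and sequenced. The submitters' processing notes name HiC-Pro 2.11.1, Bowtie2 2.3.4.1 and hg19. The deposited files give a balanced contact signal per pair of bins, 50 kb in the first run and 20 kb in the second, which was used here; the authors balanced each file separately. Bin numbers were read as positions along chromosomes 1 to 22, X, Y and M.

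Whole contacts were recovered from the signal, with at least 99.999997% of pairs within 0.01 of a whole number in each file, and tested on simulated data. Fits used limma 3.58.1 in R 4.3.3 over all bins, or all chromosome 9 pairs up to 1900 kb apart, with a pseudocount of 0.5 contacts and Benjamini-Hochberg adjustment at 0.05. Single values had exact permutation tests. Bins not present in all files were left out. Boundaries had a prominence of at least 0.2. Partners named are the 5 highest and 3 lowest per bin at least 60 kb away, plus partners just beside GFI1B, chosen after their values were seen. The members and lists were chosen with earlier results of these data known. Erythroid regulators and GFI1B cofactors elsewhere in the genome were not analysed here.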

Additional observations from a re-analysis of the deposited data

How the results depend on the processing

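Over 38 results and 495 alternatives, 406 were labelled the same and 57 reversed, and the cause was not tested. For tested results, the same means the same direction and side of the threshold. For values without a test it means a shift under 1 SD between replicates, and for counts of called pairs a similar count. By that rule the pair of bin 2 with the bin at 135260001 counts as the same, although it had 1.10 without balancing. Reversed also covers rank correlations that fell to nil. The rises of bins 1 and 2 kept their direction in every alternative run, and bin 2 stayed called in those that gave it a value. The first run gave it none: bin 2 straddles 2 of its 50 kb bins, of which the one that also holds bin 1 rose (slope 0.082, limma adjusted p = 0.000807) and the other did not pass (0.026, limma adjusted p = 0.290). The slope of bin 1 missed the threshold without the 12 h libraries (0.074) and with contacts to other chromosomes only (0.060). The coverage slope of bin 3 was called with median-of-ratios factors (-0.054), without self-contacts (-0.054) and with contacts to other chromosomes (-0.079). It was 0.0083 without the 12 h libraries and 0.026 in the 50 kb bins of the first run. Its difference of 0.25 h minus 12 h was called in the same 3 settings (0.34, 0.34 and 0.45) and was -0.16 in the first run.

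Without the 12 h libraries the self-contact slopes were 0.15 in bin 2 and -0.013 in bin 3. In the first run they were 0.0094 in bin 1 and -0.025 in bin 3, with a difference of 0.091 in bin 3. Without balancing the insulation slopes were 0.032, 0.030 and 0.077 in bins 1 to 3, and the differences were -0.16, -0.15 and -0.44. In that setting 1 GFI1B pair was called in each test. Of all 73421 pairs, 0.199% were called along the trend. Between 0.25 h and 12 h, 142 of them were called higher at 0.25 h and 99 lower. Also without balancing, the score of bin 2 was -1.22, and the lean was 1.24 in bin 1, 1.21 in bin 2 and 0.62 in bin 3. In the same setting the partners of bin 2 at 135280001 and 135680001 had 3.00 and 1.48. Bin 1 insulation in the first run had slope 0.027 and difference -0.16. For bin 3 it had slope -0.0033 and difference 0.027 with 500 kb squares, and slope -0.040 without the 0.25 h libraries.

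Among single values, rho without the 0.25 h libraries was -0.36 for contacts with other chromosomes, 0.48 for the lower-side percent, 0.36 among the GFI1B bins, 0.24 and -0.60 for partners up to 200 kb below and above, and 0.84 for bin 2 over bin 3. Without the 12 h libraries it was 0.0 for contacts with other chromosomes and for the window percent, -0.96 for the lower-side percent, 0.12 for partners below and 0.72 for bin 2 over bin 3. With 1 more bin on each side it was 0.0 for the lower-side percent and for partners below. Without balancing it was 0.83 for both, past the threshold (exact permutation p = 0.0198), and 0.68 for insulation. In the first run it was 0.15 for self-contacts, 0.34 among the GFI1B bins and 0.20 for insulation.

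Leaving out each library in turn, 19 results changed label. The 0.25 h minus 12 h differences ran from 0.12 to 0.23 for coverage of bin 3, from -0.65 to 0.84 for self-contacts of bin 2, and from 0.0087 to 0.49, -0.12 to 0.30 and -0.076 to 0.060 for insulation of bins 1 to 3. Slopes ran from -0.14 to 0.080 and -0.31 to -0.19 for self-contacts of bins 2 and 3, and from -0.043 to 0.010 and -0.0083 to 0.021 for insulation of bins 2 and 3. Spearman's rank correlation with time ran from -0.46 to 0.26 for insulation, -0.61 to 0.17 for bin 1 over bin 2, 0.61 to 0.90 for bin 1 over bin 3, -0.28 to 0.28 for partners below, -0.39 to 0.33 for partners above, -0.40 to 0.31 for the lower-side percent, -0.83 to -0.46 for self-contacts, -0.17 to 0.29 for contacts with other chromosomes and -0.018 to 0.75 for the window percent. The lean of bin 3 ran from -0.19 to 0.0038.

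Same-numbered libraries deviated together weakly, with correlations from 0.07 to 0.26 (median 0.19) for coverage and a lowest of 0.02 for self-contacts, -0.01 for pairs and -0.06 for insulation, so not every pair passed 0.1 and the numbers were not taken to pair them. With the replicate block the 0.25 h minus 12 h difference of bin 3 coverage stayed 0.18 and was called, and rho for bin 1 over bin 3 stayed 0.73 with an exact permutation p of 0.0174. It changed no other call. Over all bins, calls along the coverage trend went from 71539 rising and 14827 falling to 2583 and 435 without the 12 h libraries, to 42600 and 25138 without self-contacts, to 5003 and 2948 with contacts to other chromosomes and to 20207 and 3365 among 55271 bins of the first run. Self-contact calls went from 275 rising and 82986 falling to none without the 12 h libraries, where 42044 had an unadjusted limma p under 0.05. Insulation calls went from none to 1036 and 826 without balancing. Single pairs with GFI1B bins rest on few contacts, which limits what they can show.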
